A study of Homo sapiens with 4 samples.

Results

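The array examined here was labelled non-specific stapled-peptide, 48 h, and it was set against the mean of the other 3 of the 4 arrays in the series. By the labels the 4 arrays carried RNA of MCF-10A, a non-tumorigenic human mammary epithelial line that grows with basal-like features and lacks the estrogen receptor. The series stems from work on stapled peptides, whose helix is held by a hydrocarbon brace, made to block the binding of BIG3 (ARFGEF3) to the estrogen receptor repressor PHB2. All cultures received 10 µM of a peptide in mammary epithelial medium with growth supplements and cholera toxin, and the 4 conditions were stapled-peptide for 24 h, non-specific stapled-peptide for 24 h, stapled-peptide for 48 h and non-specific stapled-peptide for 48 h. The labels mark both non-specific arrays as control, do not give the peptides by name, and give 1 array per condition from 1 cell line. With 1 array per condition no value here has a replicate or a test, and a difference covers peptide, time and everything else that separates 1 RNA from the others.

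A difference is the log2 signal on this array minus the mean log2 signal of the other 3, after quantile normalization over all 4, and the range of those 3 is the yardstick. A gene was called when its difference was at least 2-fold and its distance to the nearest of the 3 arrays was larger than their range. A gene is measured on an array when the scanner software placed its probe well above the local background. Where a gene was measured only on this array, or on each of the other 3 and not on this one, its fold is given as a lower bound. It is set against the lowest measured signal of each array lacking the gene, or the gene's own signal there if higher. Such genes could only come out higher and lower, respectively, so for many lists counts are also given over the genes measured on all 4 arrays. Where that count is not given, the list count includes such genes. Where only some of the other 3 arrays measured a gene, its levels are given, or its difference with that count, and no fold. Each of the 20501 genes is represented by its brightest probe, and 17662 have a difference.

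Mammary basal cells are held to the basement membrane by hemidesmosomes, built on integrin alpha-6 beta-4 and laminin-332, and by a cytoskeleton of the basal keratins KRT5, KRT14 and KRT17. MCF-10A cells also make many matrix proteins, S100 calcium-binding proteins and cytokines. HOX genes record the position of a cell along the body axis and are set early in development, so that cell lines of different origin carry different HOX patterns.

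The other 3 arrays lay close to each other and this array lay apart. Among the 14042 genes measured on all 4 arrays, the median range of the 3 was 0.15 and the median absolute difference of this array from their mean was 0.75 on the log2 scale. The distance to the nearest array was larger than their range for 10993 of these genes, 78.29%. The median difference over all genes with a value was 0.00. The share of probes well above background was 63.5% on this array and 60.1% to 62.4% on the other 3, no spot was saturated, and the scanner software marked 365 spots as outliers here and 343 to 438 elsewhere. By their file headers the 4 arrays share 1 slide and 1 scan, so slide and scan do not separate this array from the others.

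At 2-fold, 3524 genes (20.0%) were higher and 3353 (19.0%) were lower than on the other 3 arrays. At 10-fold, 449 genes (2.54%) were higher and 668 (3.78%) were lower. At 100-fold, 41 genes (0.232%) were higher and 119 (0.674%) were lower, so that genes higher on this array made up 51.2% of the calls at 2-fold and 25.6% at 100-fold. Scaling to the 75th percentile gave 3196 higher and 3979 lower at 2-fold (44.5% higher) and no normalization 3840 and 3208 (54.5%), so which direction had more calls at 2-fold turned with the scaling. Of the 14042 genes measured on all 4 arrays, 2579 (18.4%) were higher and 2645 (18.8%) lower by at least 2-fold. The list counts are to be read against these shares, and a count near them shows nothing of the list. A further reading is given by presence: 1108 genes (5.40% of 20501) were measured only on this array and 800 (3.90%) were measured on each of the other 3 and not here. Most genes of both kinds were dim, with a median level of 5.24 on this array for the first and 5.33 on the others for the second, and 37 and 48 of them, respectively, reached a log2 signal of 10.

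**Figure D1:**
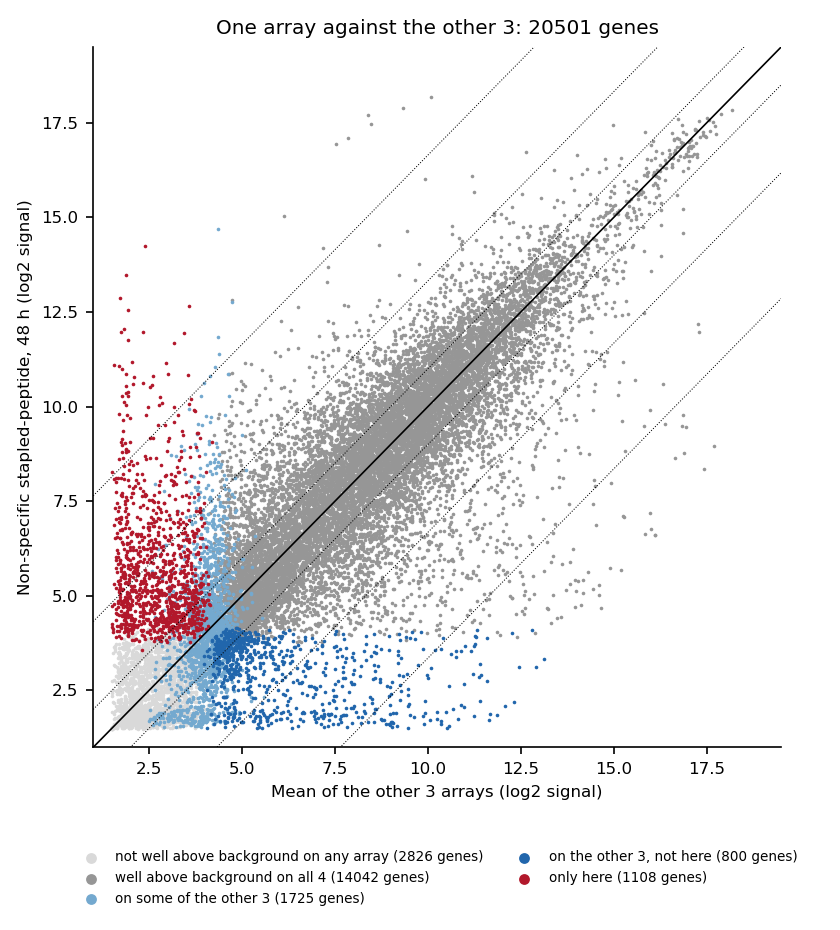
Each point is 1 of 20501 genes, with the mean log2 signal of the other 3 arrays on the x axis and the log2 signal of the non-specific stapled-peptide 48 h array on the y axis, both without bounds; the solid line marks equal signal and the dotted lines mark 2-, 10- and 100-fold. The 1108 genes measured only on this array rise along the left edge and the 800 genes lost from it run along the bottom, while 14042 genes measured on all 4 scatter on both sides of the line.

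Promoter sequence is shown for genes at both ends of this comparison, to show how their base composition varies. The sequences are the 250 bases before the transcription start from RefSeq (GRCh38.p14), 5′ to 3′, with each CG dinucleotide in capitals. UCHL1, a neuronal deubiquitinase, and LIN28B, an embryonic RNA-binding protein that blocks let-7 maturation, were measured only on this array, and KRT5 was among the genes that fell furthest.
UCHL1 (chr4:41256678-41256927, plus strand): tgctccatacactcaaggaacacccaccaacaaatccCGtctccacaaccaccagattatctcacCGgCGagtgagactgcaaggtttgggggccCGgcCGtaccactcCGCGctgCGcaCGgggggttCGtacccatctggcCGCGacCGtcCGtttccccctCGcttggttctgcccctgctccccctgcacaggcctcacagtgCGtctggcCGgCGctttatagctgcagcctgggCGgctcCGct
LIN28B (chr6:104940715-104940964, plus strand): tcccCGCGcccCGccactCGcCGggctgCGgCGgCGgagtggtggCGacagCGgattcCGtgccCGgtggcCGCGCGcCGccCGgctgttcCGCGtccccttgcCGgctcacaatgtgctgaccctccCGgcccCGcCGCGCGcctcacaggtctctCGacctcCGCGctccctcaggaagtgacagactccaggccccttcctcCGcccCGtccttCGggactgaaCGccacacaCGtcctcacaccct
KRT5 (chr12:52520395-52520644, minus strand): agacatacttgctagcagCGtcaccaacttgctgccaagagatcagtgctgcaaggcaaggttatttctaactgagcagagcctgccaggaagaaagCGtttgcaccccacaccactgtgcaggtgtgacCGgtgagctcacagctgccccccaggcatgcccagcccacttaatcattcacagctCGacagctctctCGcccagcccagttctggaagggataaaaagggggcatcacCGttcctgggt
The UCHL1 window held 20 CG dinucleotides, that of LIN28B 33 and that of KRT5 6. Promoter sequence was at hand for 15618 of the genes on the arrays, of which 69.0% held at least 10 CG dinucleotides. The share was 76.9% of the 329 genes with sequence that were higher by at least 10-fold and 59.0% of the 473 that were lower by at least 10-fold. It was 58.7% of the 783 measured only here and 38.7% of the 564 lost here. These shares describe letters in a window, and methylation was not measured. The TATA box motif TATAAA, read on both strands, lay in 8.9% of the promoters on the arrays, in 10.0% of those of genes higher by at least 10-fold and in 11.6% of those lower. It lay in 11.5% of the promoters of genes measured only here and in 14.9% of those lost. The AP-1 motif TGANTCA lay in 5.2% over the arrays, in 4.0% and 8.9% of the higher and lower sets, and in 4.6% and 9.9% of the genes measured only here and lost.

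The marker genes of MCF-10A were compared first, as a check of the label. KRT5 stood at 14.65, 14.53 and 14.60 on the stapled-peptide 24 h, non-specific 24 h and stapled-peptide 48 h arrays and at 5.02 on this array, a difference of -9.58 or 765-fold. KRT14 stood at 12.34, 12.08 and 12.20 against 5.00, and KRT17 at 11.83, 11.51 and 11.59 against 4.51, both more than 100-fold lower. ITGB4, the hemidesmosome integrin, stood at 15.19, 15.23 and 15.29 against 7.10. Each of these 4 genes was still measured here and lay farther from the nearest array than the range of the other 3, as did 78.29% of the genes measured on all 4. EGFR, the receptor through which these cells are kept growing, was 6.80-fold lower. TP63, the basal transcription factor, was 2.26-fold lower, from a level of 5.86 to 6.22 on the others to 4.85. CDH1 stood at 5.13, inside the 4.91 to 5.45 of the other 3 arrays, and ESR1 at 5.04, inside 4.86 to 5.19. On all 4 arrays CDH1 thus lay close to the level of ESR1, whose receptor the line lacks. CDH1 therefore did not mark the other 3 arrays either, and no steady expression of it is read here. KRT5, KRT14, KRT17 and ITGB4 were thus more than 100-fold below their level on the other arrays. On these 4 genes this array lacked the basal-like profile of the other 3, and whether its RNA is that of the label was not tested. It is called the array labelled non-specific 48 h where a direction is drawn. In RNA from a whole culture, fewer cells of a type and less RNA per cell cannot be told apart.

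Among the 10 basal and stratified keratins with a value, 8 were lower and 0 were higher, with a median difference of -6.49 against 0.00 over all genes. Over the 8 measured on all 4 arrays, 6 were lower and the median was -4.85. KRT6A, a keratin of activated epithelium, fell from 13.10, 13.10 and 13.17 to below the measured range, at least 754-fold. KRT6B, at 5.98 against 5.71 to 5.96, and KRT13, with a difference of 0.01, were not called. The probes of KRT6A, KRT6B and KRT6C target close paralogs, so the split between them is uncertain. Simple keratins followed with 5 of 6 lower, KRT7 with a difference of -6.05 and KRT8 with -2.76, while KRT19 had 0.76. All 9 hemidesmosome and laminin-332 genes were lower, LAMB3 by 362-fold.

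Other adhesion genes were lower more often than the 19.0% of all genes, and higher no more often than the 20.0%. Of 12 desmosome genes, 5 were lower and 1 was higher, and the plakophilin PKP3 had the lowest difference, -7.81, beside -0.09 for DSP. Of 19 tight junction and epithelial adhesion genes, 7 were lower and 3 were higher. EPCAM, an epithelial adhesion protein, was higher by 1.16 and the claudin CLDN4 by 1.98. Among epithelial transcription factors, EHF was lost with a bound of -4.01 and BNC1 fell by 5.14, while GRHL1, measured on 2 of the other 3 arrays, was higher by 4.52 and GRHL2 was measured only here. SERPINB5 (maspin), an epithelial serpin, was lost with at least a 414-fold difference.

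**Figure D2:**
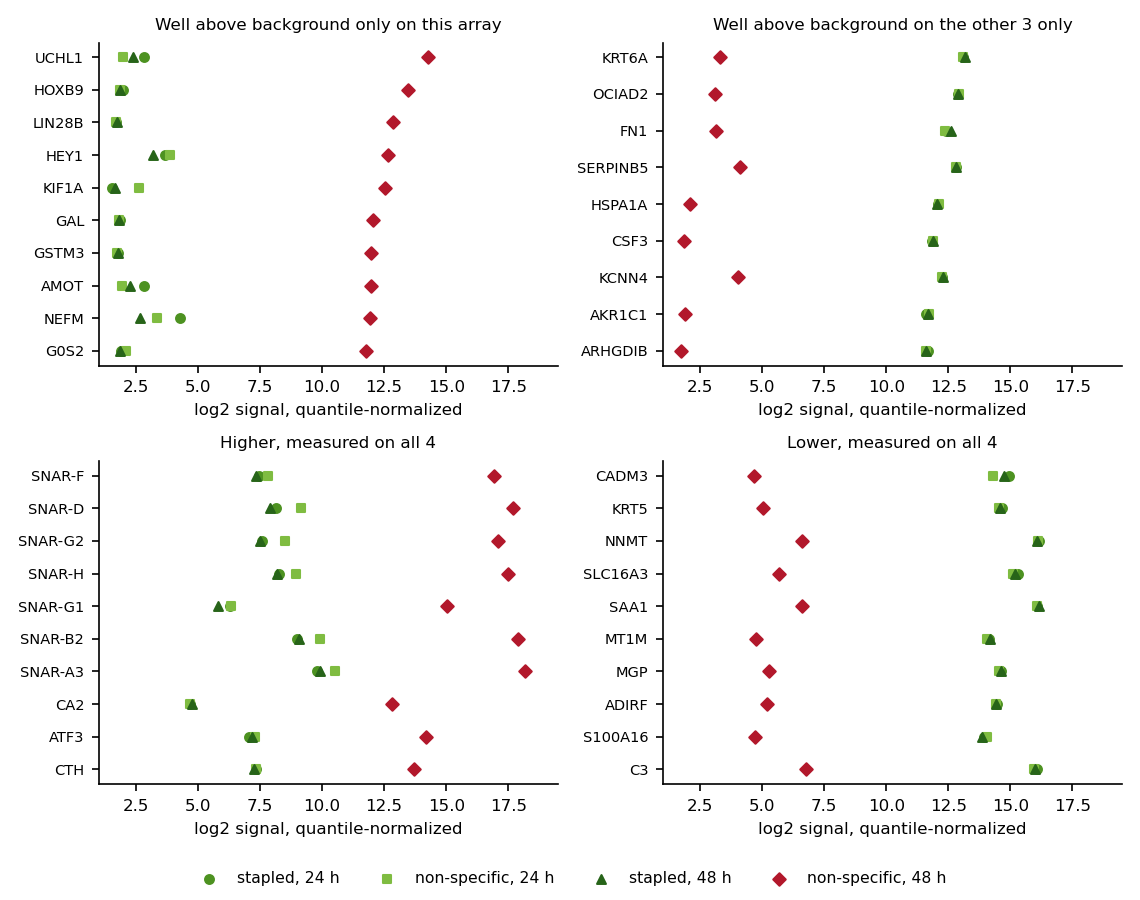
Log2 signal, quantile-normalized, of the 10 genes with the largest difference in each of 4 classes, with 1 symbol per array and no bound applied; 1 gene of the class lost on this array is not shown. The 3 other arrays fall together on the scale for nearly every gene, and in each panel the array labelled non-specific 48 h lies at the opposite end.

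Genes measured only on this array were led by UCHL1, at 14.25 here and 1.96 to 2.81 on the other 3, at least 1333-fold higher. HOXB9, a posterior HOX gene, stood at 13.47 against 1.84 to 1.97, at least 777-fold. LIN28B stood at 12.86 against 1.70 to 1.72, at least 509-fold, and HEY1, a Notch-induced transcriptional repressor, at 12.64 against 3.19 to 3.87, at least 429-fold. None of these 4 genes was measured on any other array, and this array stood alone on the high side for each. KIF1A, a synaptic vesicle motor, was at least 411-fold higher and GAL, the neuropeptide galanin, at least 288-fold. GSTM3, AMOT, NEFM and G0S2 completed the first 10, with bounds from 236-fold for G0S2, an inhibitor of lipolysis, to 277-fold for GSTM3, a glutathione transferase.

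Genes lost on this array were led by KRT6A and OCIAD2, the latter at 12.89 to 12.93 on the others and at least 647-fold lower. FN1 (fibronectin) followed at 12.35 to 12.61 and at least 476-fold, and SERPINB5 and HSPA1A were also among the first, HSPA1A at least 366-fold lower. HSPA1A shares most of its sequence with HSPA1B, which was measured here and was 3.08-fold lower, so the size for either is uncertain. CSF3, a granulocyte growth factor, KCNN4, a calcium-activated potassium channel, AKR1C1, a steroid-reducing enzyme, and ARHGDIB, a GDP-dissociation inhibitor of small GTPases, closed the list with bounds of 316, 301, 275 and 268-fold.

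Where a gene was measured on all 4 arrays, the largest increases were in the snaR small noncoding RNAs, which are transcribed by RNA polymerase III. SNAR-F stood at 7.46, 7.80 and 7.35 on the stapled-peptide 24 h, non-specific 24 h and stapled-peptide 48 h arrays and at 16.94 here, 675-fold higher. SNAR-D stood at 8.12, 9.13 and 7.91 against 17.70, 637-fold. All 7 snaR genes with a value were higher by more than 100-fold, with a median difference of 9.01. The snaR genes are near-identical copies, so these 7 values are not independent measurements and cannot be assigned to single genes. All 7 were also higher on the non-specific 24 h array than on either stapled-peptide array, and for SNAR-D this made the range of the 3 arrays 1.22. CA2, a carbonic anhydrase, was 273-fold higher, ATF3, a stress-induced transcription factor, 129-fold and CTH, which makes cysteine from cystathionine, 84.3-fold. The 4 probes of ATF3 ranged from a difference of 0.08 to 7.01.

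The largest decreases among genes measured on all 4 began with CADM3, an adhesion molecule, at 14.93, 14.31 and 14.74 against 4.68, 1009-fold lower. KRT5, NNMT (nicotinamide methylation, 730-fold), SLC16A3 (lactate export, 729-fold) and SAA1 (serum amyloid, 717-fold) came next. MT1M, MGP, ADIRF, S100A16 and C3 were lower by 597 to 661-fold. C3, the complement component, stood at 15.94 to 16.07 on the others and at 6.78 here.

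The matrix and secreted gene families lay mostly on the lower side. Of 14 S100 genes with a value, 11 were lower and 1 was higher, with a median difference of -4.83. S100A6 stood at 17.41, 17.45 and 17.41 against 8.34, while S100P was the member that was higher, by 3.96. Of 29 matricellular and matrix genes, 22 were lower and 3 higher. TGFBI, a transforming growth factor-beta-induced matrix protein, stood at 17.67 to 17.73 against 8.95, and DCN (decorin) was 574-fold lower, but the basement membrane linker NID1 was measured only here, at least 106-fold higher. Of 8 caveolin and cavin genes 6 were lower, CAV1 by 105-fold. CAVIN1 was higher by 1.49 on its brightest probe and had another probe at -6.54, so no direction is given for it. Of 16 EGF receptor ligand and receptor genes, 11 were lower and 3 higher, with AREG (amphiregulin) 396-fold lower and ERBB4 measured only here. CD44, the hyaluronan receptor, was 466-fold lower on its brightest probe and fell by 1.94 on its other probe.

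Inflammatory and interferon-related genes were lower nearly throughout. Of 28 acute-phase and cytokine genes with a value, 26 were lower and 0 higher, with a median of -4.59, against background shares of 19.0% and 20.0%. Of these, 9 were lost here, and of the 19 measured on all 4 arrays 17 were lower. CXCL1, a neutrophil chemokine, stood at 15.85, 15.78 and 15.89 against 6.63, 591-fold lower, and IL1RN (0.39) and CXCL5 (0.20) were not called. Of 24 interferon-stimulated genes, 22 were lower and 0 higher, with a median of -4.00. Of these, 10 were lost here, and of the 14 measured on all 4 arrays 13 were lower. IFI44L was lost from 10.90 to 11.12, at least 159-fold lower, and IFITM3 was 81.1-fold lower. Of 18 antigen presentation genes, 15 were lower and 0 higher, with a median of -1.67. B2M, the light chain of MHC class I, stood at 14.60 to 14.72 against 11.38.

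The promoters of these sets were searched because their members moved together, with 5 motifs in all, and the motifs and the promoters printed were chosen with the results known. The definitions of the NF-kappaB and interferon motifs were replaced once after their shares had been seen. The first definitions also lay more often in the lists than over the arrays, and the shares depend on the definition. The NF-kappaB consensus, read on both strands, lay in 14 of 23 acute-phase and cytokine promoters (60.9%), against 1723 of the 15618 genes on the arrays with sequence. The motif GAAANNGAA, read on both strands as a loose interferon-stimulated response element, lay in 12 of 18 interferon-stimulated gene promoters (66.7%), against 6.0%. Both gene sets were listed by pathway, and a match does not show binding. The promoters of CXCL1 and IFIT3 are printed with their matches in capitals; the 2 NF-kappaB matches of CXCL1 overlap.
CXCL1 (chr4:73869143-73869392, plus strand): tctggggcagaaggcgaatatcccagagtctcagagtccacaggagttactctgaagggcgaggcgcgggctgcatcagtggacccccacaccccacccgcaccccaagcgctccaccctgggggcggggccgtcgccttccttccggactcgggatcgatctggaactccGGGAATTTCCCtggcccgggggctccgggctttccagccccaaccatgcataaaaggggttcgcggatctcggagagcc
IFIT3 (chr10:89327747-89327996, plus strand): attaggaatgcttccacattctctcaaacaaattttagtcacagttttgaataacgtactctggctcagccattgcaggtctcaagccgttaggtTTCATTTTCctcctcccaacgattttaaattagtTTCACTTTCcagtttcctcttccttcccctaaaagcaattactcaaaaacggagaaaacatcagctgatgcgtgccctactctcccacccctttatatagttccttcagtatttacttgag
IFIT3 itself stood at 9.62, 9.39 and 9.49 against 4.39, 34.6-fold lower.

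Genes of amino acid supply and DNA replication were higher. The ATF4 program raises amino acid synthesis and import when amino acids or protein folding are limiting. Of its 20 listed genes, 17 were higher and 2 lower, with a median of 2.22. ASNS, asparagine synthetase, stood at 11.19, 11.13 and 11.26 against 16.10, higher by 4.91, and CHAC1, which degrades glutathione, at 6.14, 6.07 and 5.92 against 12.25, 73.8-fold. PHGDH and PSAT1 of serine synthesis were higher by 3.91 and 3.46. DDIT4 (-1.03) and CEBPB (-1.11) were the members that were lower. The motif TGATGNAA, read on both strands as a loose amino acid response element, lay in 3 of 16 promoters of the list (18.8%), against 2.2% of genes on the arrays, and is in capitals below.
CHAC1 (chr15:40953221-40953470, plus strand): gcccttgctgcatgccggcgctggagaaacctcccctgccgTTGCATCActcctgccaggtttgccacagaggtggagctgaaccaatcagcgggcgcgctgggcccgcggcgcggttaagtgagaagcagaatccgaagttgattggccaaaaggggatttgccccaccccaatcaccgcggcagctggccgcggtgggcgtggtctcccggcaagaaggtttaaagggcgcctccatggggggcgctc
ASNS (chr7:97872409-97872658, minus strand): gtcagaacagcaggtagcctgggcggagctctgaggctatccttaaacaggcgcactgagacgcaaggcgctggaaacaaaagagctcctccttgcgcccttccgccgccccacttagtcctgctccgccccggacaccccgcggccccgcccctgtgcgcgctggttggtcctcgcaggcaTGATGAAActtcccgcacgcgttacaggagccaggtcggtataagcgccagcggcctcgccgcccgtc
Of 28 DNA replication genes, 27 were higher and 0 lower, with a median of 2.43, CDC45 of the replicative helicase by 16.1-fold and MCM2 by 6.30-fold. RRM2, with a difference of 0.42, was not called. Of 21 kinetochore and mitosis genes, 14 were higher and 0 lower, while MKI67 was not called at -0.91. Of 20 G1 cyclin and CDK inhibitor genes with a value, 8 were higher and 3 lower, with a median of 0.41. CCND1, a G1 cyclin, was 18.7-fold lower and the CDK inhibitor CDKN1A 7.99-fold lower. CDKN2A, another CDK inhibitor, stood at 8.77, 8.64 and 8.68 against 14.26. The 34 cytosolic ribosomal protein genes had a median of -0.03 (-0.26 under scaling by the 75th percentile, which moved the median of all genes to -0.13) and 1 call in each direction, RPL39L higher by 3.13 and RPS27L with -1.81. Of 16 housekeeping genes used as references, 3 were higher and 3 lower, near the shares over all genes, with a median of -0.42. GAPDH had a difference of -0.86 and RPLP0 of -0.19, and neither was called.

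Several metabolic and stress lists leaned to the lower side. Of 21 cholesterol synthesis genes, 12 were lower and 0 higher, with MSMO1 at -3.33. Of 19 heat shock chaperones, 10 were lower and 0 higher, with HSPB1, a small chaperone, at -2.63 and HSP90AB1, not called, at -0.65. Of 22 glycolysis genes, 8 were lower and 3 higher, with PDK1, which holds back pyruvate oxidation, higher by 1.97. HK2, among the 22, was higher by 1.81 on its brightest probe and had another at -2.49, so it is counted in neither direction. Of 16 aldo-keto reductase and NRF2 target genes, 11 were lower and 2 higher. AKR1C3, a steroid-reducing enzyme, was 460-fold lower and NQO1, a quinone reductase, at least 44.1-fold lower, while SLC7A11, the cystine importer also listed under ATF4, was higher by 3.89. Of 24 oxidative phosphorylation genes 1 was higher and 0 lower, with a median of 0.33. Of 23 p53 target genes, 10 were lower and 3 higher, with POLH counted in neither direction because its probes disagreed. SFN, an epithelial 14-3-3 protein, was 218-fold lower and the death receptor FAS had a difference of -4.00, while PMAIP1, a BH3-only protein, was higher by 3.62.

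Genes of cell shape and attachment were lower more often than higher. Of 23 actin and contractile genes, 14 were lower and 1 higher, with the myosin light chain MYL9 at -5.61 and the tropomyosin TPM2 at -4.81. Of 16 integrin subunits, 8 were lower and 2 higher, ITGA3 with -6.32 and ITGA7 with 2.55, and 6 and 1 of the 12 measured on all 4 arrays. Of 19 TGF-beta and YAP target genes, 15 were lower and 1 higher, CCN2 at least 98.6-fold lower, and 11 and 1 of the 15 measured on all 4. Of 9 annexins, 6 were lower and 1 higher, ANXA1 with -7.67. Of 21 plasminogen and protease genes, 13 were lower and 2 higher, the urokinase PLAU with -6.33. Among them 6 were lost here, and of the 12 measured on all 4 arrays 7 were lower and 1 higher. The 23 collagens had 10 lower and 7 higher, with COL8A1 at -8.67 and the cartilage collagen COL2A1, measured only here, at 4.74 or more. Over the 19 measured on all 4 arrays 10 were lower and 3 higher, with a median of -1.88. Cornified envelope genes had 8 lower and 2 higher of 20, and 4 and 1 of the 13 measured on all 4 arrays.

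The BEX and TCEAL genes lie together on the X chromosome and encode small proteins, several of them abundant in brain. BEX2 stood at 4.29, 4.42 and 4.32 against 14.71, with 1 of the other 3 arrays measuring it, and BEX1 was measured only here, at least 150-fold higher. In all 5 of 13 members were higher and 2 lower, but over the 9 measured on all 4 arrays 1 was higher and 2 were lower. TCEAL5 and TCEAL6 were the lower members, with differences of -6.12 and -6.13, and as near-identical copies they may share signal. Imprinted genes, expressed from a single parental copy, had 4 higher and 8 lower of 20, the first equal to the 20.0% of all genes and the second above the 19.0%. Over the 13 measured on all 4 arrays 4 were higher and 4 lower. SNRPN was lost from 10.24 to 10.26, at least 103-fold lower, and GRB10 was higher by 2.71. Retinoid genes had 5 higher and 2 lower of 15, of which 3 of the higher were measured only here. Cancer-testis genes had 3 and 0 of 12, all 3 measured only here, PRAME among them. Long noncoding RNAs had 7 higher and 5 lower of 16, against 20.0% and 19.0% over all genes, with H19 at -4.31 and MALAT1 at -1.23.

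Positional and developmental genes differed by cluster. HOXB genes were mostly higher, 7 of 9 with 0 lower and a median of 1.99, but 3 of these were measured only here, and 4 genes were measured on all 4 arrays, of which 3 were higher. Besides HOXB9, HOXB6 stood at 4.31, 4.81 and 5.08 against 12.75, with 2 of the other 3 arrays measuring it. HOXD13 was measured only here, at least 121-fold higher, and HOXD10, measured on 2 of the other 3, stood at 5.11, 5.37 and 3.42 against 10.87. In the HOXD cluster 4 of 8 genes were higher and 0 lower, but only 2 were measured on all 4 arrays, of which 1 was higher. In the HOXA cluster 4 of 10 were higher, HOXA7 by 4.68, and 1 was lower, and 3 and 1 of the 9 measured on all 4 arrays. Of 9 HOXC genes 3 were higher and 0 lower, the same counts as over the 7 measured on all 4 arrays. HOXA10, among the 10, was lower by 1.22 on its brightest probe and higher by 2.13 on another, so it is counted in neither direction.

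The Notch pathway, which passes signals between neighbouring cells, had 11 of 19 genes higher and 4 lower, and 6 and 4 of the 13 measured on all 4 arrays. The receptor NOTCH3 was higher by 4.32 on the log2 scale, the targets HES4 and NRARP were 21.5 and 39.3-fold higher, and the ligand DLL3, measured on 1 of the other 3 arrays, stood at 3.58, 4.36 and 3.51 against 9.54, whereas the ligand JAG1 was 10.8-fold lower. Of 30 Wnt genes, 7 were higher and 12 lower, and DKK1, a secreted Wnt inhibitor, stood at 12.55 to 12.68 against 4.67. Of the proteins named in the study's target complex, ARFGEF3 stood at 5.96, 4.84 and 3.54 against 7.62 and was not called, since the other arrays ranged over 2.42.

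Noncoding host transcripts moved in both directions. MIR17HG, the host of the miR-17 to miR-92a cluster, stood at 4.46, 4.99 and 5.08 against 9.78, 30.6-fold higher, and MIR31HG was lost from 6.97 to 7.35, at least 10.9-fold lower. For each miRNA hairpin that RefSeq (GRCh38.p14) places inside these host genes, the main mature arm is printed, with the seed (bases 2 to 8) in capitals, to show what the host transcripts carry. The miRNAs themselves were not measured.
hsa-miR-17-5p: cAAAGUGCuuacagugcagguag
hsa-miR-18a-5p: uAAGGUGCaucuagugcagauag
hsa-miR-19a-3p: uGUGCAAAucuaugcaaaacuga
hsa-miR-20a-5p: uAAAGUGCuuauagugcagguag
hsa-miR-19b-3p: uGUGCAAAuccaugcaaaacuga
hsa-miR-92a-3p: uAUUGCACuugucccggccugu
hsa-miR-31-5p: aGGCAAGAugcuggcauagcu
miR-17-5p and miR-20a-5p share a seed, as do miR-19a-3p and miR-19b-3p, while miR-18a-5p and miR-92a-3p have seeds of their own.

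The lists of other tissues and cell lines were then read for what the measured-only-here and lost genes have in common. They were chosen with earlier results known, and their genes measured only here had a value through this array alone, so the counts describe the array and do not name its cells. On the list of markers of human embryonic kidney lines, 14 of 17 genes were higher and 1 lower, with HOXA10 counted in neither direction. The median over all 17 was 5.38. Of these 17, 7 were measured only here, against 5.40% of all 20501 genes. Over the 8 measured on all 4 arrays 6 were higher and 1 lower, with a median of 2.42. The list had 16 genes measured here and 9 on each of the other 3 arrays, beside 16006 and 15537 to 15882 of all 20501 genes. LIN28B, GAL, IGF2BP1 and the neurofilaments NEFM and NEFL, all measured only here, led it, and CKB, the brain-type creatine kinase, stood at 7.17 to 7.37 on the others and at 13.30 here. PAX2 (0.33) was not called, and PCDH9 was lower on its brightest probe. The lists share members, so their counts are not separate evidence. NEFL, NEFM, INA and TUBB2B are also in the neuronal cytoskeleton list, and PAX2 is in the nephron progenitor list. HOXA9, HOXA10, HOXC10 and HOXD10 are also counted in the HOX clusters. Of the 26 neuronal RNA-binding and transcription factor genes, 13 were measured only here (5.40% over all genes), 7 on no array and 5 on all 4. Of those 5, 1 was higher and 0 lower, with a median of 0.55. Among the genes measured only here, ONECUT2 was at least 83.1-fold, POU3F2 at least 60.1-fold and SOX2 at least 18.5-fold higher. The neuronal cytoskeleton list was mixed, with 18 of 31 higher and 5 lower, and 6 and 4 of the 17 measured on all 4 arrays. UCHL1, NEFM and NEFL were measured only here, but TUBB3, a neuronal tubulin, was 16.7-fold lower and MAP2 40.5-fold lower. Among 12 nephron progenitor genes 5 were higher and 0 lower, of which 3 were among the 7 measured on all 4 arrays. CITED1 was higher by at least 26.9-fold, which is a bound, while WT1 and PAX8 were not called. Of 9 sympathoadrenal genes 4 were higher and 1 lower, 3 of the 4 measured only here, with HAND1 measured only here and higher by at least 3.59 on the log2 scale. Of 16 oncofetal and pluripotency genes 9 were higher and 0 lower, and 4 of the 9 measured on all 4 arrays, DNMT3B by 2.74, while HMGA2 had -0.28 and IGF2BP2 -0.16. The neural adhesion and guidance list, of 28 genes, had 8 higher and 5 lower and held CADM3. Over its 14 genes measured on all 4 arrays 3 were higher and 3 lower, with a median of -0.09.

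Further tissue lists are given for comparison. Luminal breast cancer genes had 4 higher and 4 lower of 16, melanocyte genes 2 and 0 of 7, hepatocyte genes 0 and 1 of 9, and muscle genes 3 and 1 of 9. Blood cell genes had 3 higher and 4 lower of 15, endothelial genes 2 and 4 of 10, and fibroblast genes 1 and 11 of 20. Prostate genes had 4 higher and 1 lower of 9, the same counts as the sympathoadrenal list, and 3 and 1 of the 8 measured on all 4 arrays. Intestinal genes had 1 higher and 2 lower of 7. Of the intestinal genes, the transcription factor CDX2 was 26.2-fold higher. The summed signal of the basal keratin list was 11.42 on this array and 16.12 to 16.13 on the others, and that of the embryonic kidney line list was 15.53 against 12.04 to 12.09 (log2 of the sums). The embryonic kidney line list was chosen with earlier results known and holds LIN28B, GAL and NEFM, which are among the leading genes measured only here. Its higher sum is therefore not separate evidence. Both lists move with the differences described above, and their part in those differences was not tested.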

How the data were processed

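Groups came from the submitters' labels. Total RNA, given as MCF-10A by the labels, was labelled with Cy3 from 100 ng and hybridised to Agilent 8x60K human arrays. The deposited scanner files give background-subtracted intensity values per spot; the submitters' processing notes name Agilent Feature Extraction 9.5 and the file headers 10.7.1.1. The authors' combined table, also deposited as intensity, was used only as an alternative; within 0.1% it equals the mean spot signal for at least 98.56% of probes. Control spots and spots marked as outliers were left out, log2 signals were averaged per probe and quantile-normalized over the 4 arrays, which holds down increases among the brightest genes. Of 50599 probes, 28174 (55.7%) matched a RefSeq symbol by accession, and a gene was given by its brightest probe. The groups hold 1 array each, so no test was run, and precision is limited by having 4 arrays. Python 3.11.15 was used, with limma 3.58.1 for one background alternative, and the steps were tested on simulated data. The named genes are the 10 with the largest difference in each of 4 classes, plus the list members with the largest differences, those that define a list, and listed genes whose probes differ by 2-fold in opposite directions (85 of the 4651 genes with several probes do). The members and the 61 gene lists were chosen with earlier results of these data known, and the lists drawn in the figures were picked after their values were seen. Some genes named by this rule are not reported here. Alternatives covered scaling, background correction, bounds, dim probes, outlier spots, the gene summary, the combined table and leaving out each other array.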

Additional observations from a re-analysis of the deposited data

Results flagged for a closer look

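The median level of the snaR small RNAs was higher by 8.57 on the log2 scale on the array labelled non-specific 48 h than on the non-specific 24 h array, and the stapled-peptide 48 h array differed from the 24 h one by -0.11. The signs are opposite, but the second value is smaller than the median range of 0.15 among the other 3 arrays, so no direction is read from it. KRT5, KRT14, KRT17 and ITGB4 were also more than 100-fold lower on the first array. Time with the peptide cannot be told apart from anything else that separates its RNA, and the source of the 8.57 was not tested. Each value rests on 1 array per condition, and whether these changes differ was not tested. List medians were compared only where the change was at least 2-fold with the non-specific stapled-peptide and at least 0.1 on the log2 scale in the opposite direction with the stapled-peptide, limits chosen after the values were seen. Levels of unmeasured genes that lay below the lowest measured level of their array were raised to it. Before that was done, the neuronal RNA-binding and transcription factor list also met these limits.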

How the results depend on the processing

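No paired analysis was possible because each condition has 1 array. A list median counted as moved beyond 1.5-fold, since there is no replicate spread. The list medians of at least 2-fold kept their direction under each alternative run, except that of the neuronal cytoskeleton and vesicle genes, which was -0.22 over probes well above background on all 4 arrays, a set that leaves out genes measured only here. Of the 29 list medians under 2-fold, 10 changed sign under at least 1 alternative, the largest of them reported as 0.68, so their directions are not settled. With that filter the counts at 10-fold were 189 higher and 443 lower and at 100-fold 9 and 76; fewer genes enter by construction. The medians were then -4.85 for basal keratins, -4.41 for hemidesmosome and laminin-332 genes, -1.88 for collagens, -0.89 for fibroblast markers, -0.85 for cancer-testis genes, -0.40 for BEX and TCEAL genes and -0.31 for muscle markers, and 2.42 for the embryonic kidney line list, 0.55 for neuronal RNA-binding and transcription factors, 0.51 for nephron progenitor markers and 0.11 for the Notch pathway.

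Normexp background correction adds an offset of 50 to each signal, which narrows folds by construction. It gave 173 higher and 348 lower genes at 10-fold and 11 and 42 at 100-fold. The medians were -4.41 for basal keratins, -3.91 for S100 genes, -3.13 for caveolins and cavins, -2.69 for acute-phase and cytokine genes, -2.36 for interferon-stimulated genes, -2.26 for hemidesmosome and laminin-332 genes, -1.76 for TGF-beta and YAP targets, -1.70 for aldo-keto reductases and NRF2 targets, -1.55 for EGF receptor ligands and receptors, -1.12 for annexins, -0.97 for the plasminogen and protease system, -0.63 for fibroblast markers, -0.47 for epithelial transcription and splicing factors, -0.40 for integrins and -0.32 for intestinal markers. They were 3.40 for the embryonic kidney line list, 1.77 for HOXD, 1.23 for HOXB, 0.96 for the Notch pathway, 0.87 for oncofetal and pluripotency genes and 0.66 for neuronal RNA-binding and transcription factors.

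Without bounds for dim probes, 73 genes were higher by at least 100-fold, and the medians were -5.31 for hemidesmosome and laminin-332 genes, -2.44 for fibroblast markers, 4.01 for HOXB, 2.51 for neuronal RNA-binding and transcription factors, 1.90 for neuronal cytoskeleton and vesicle genes and 0.96 for muscle markers. When all probes of a gene were averaged they were -1.56 for intestinal and 1.20 for prostate markers. Leaving out each of the other 3 arrays in turn gave 1228 to 1297 genes measured only here, 857 to 926 lost and a nephron progenitor median of 1.93 to 2.08, against 1.43 as reported. Scaling to the 75th percentile, no normalization, outlier-marked spots and the authors' combined table each left all 61 list medians within 1.5-fold of the reported value. The filter gave a median for 60 of the 61 lists, and it was not used for genes measured only here or lost. Signals near background, below a log2 level of about 4, carry no order.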
